A study of Mus musculus with 48 samples.

Results

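Arginine and polyamine metabolism was followed through 6 transcripts in single-cell RNA sequencing of mouse GL261 glioblastoma, in which the tumor cells carried a hairpin against P-selectin (shSELP) or a negative-control hairpin (shNC). The 6 members, Nos2, Slc7a2, Ass1, Odc1, Sat1 and Slc7a1, were picked by name as enzymes and carriers of this pathway, and all 6 are present in both deposited count tables. Another 46 pathway genes served as a wider list, of which 45 are in the table of the tumor mix and 42 in that of the CD11b+ cells.

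Male C57BL/6 mice aged 6 weeks received GL261 cells in the striatum, and cells were isolated with magnetic beads. The mix joins CD11b+ cells, the remaining CD45+ cells and cancer cells in equal amounts, so the shares of its classes do not measure tumor composition. The methods of the study give isolation on day 17, 3 pooled brains per group and kit version 3, whereas the labels give day 16 for the mix, day 21 for the CD11b+ cells and kit version 2. The hairpin acts in the injected tumor cells only, and every myeloid cell belongs to an unmodified host.

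The mix has 4 libraries, shNC 1, shNC 2, shSELP 1 and shSELP 2, while CD11b+ cells were sequenced as a single library in each group, and every library has 8 sequencing entries. Of the 8 entries of CD11b+ shSELP, 7 carry a description line that names the negative control, although their titles, source names, genotypes and the names of the count columns give the P-selectin knockdown, so every CD11b+ direction rests on those other labels. Nothing in the labels says that the libraries came from separate animals, and all p-values below measure only the spread between libraries.

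Arginine enters myeloid cells through cationic carriers, and inducible nitric oxide synthase oxidises it to nitric oxide and citrulline, from which arginine can be rebuilt. Ornithine feeds the polyamines putrescine, spermidine and spermine.

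The 4 mix libraries hold 22945972, 22626413, 17398121 and 25589350 unique molecular identifiers (UMIs) in the order above, and the CD11b+ libraries hold 12628177 (shNC) and 11445676 (shSELP). After removal of cells with fewer than 500 genes or over 10% mitochondrial UMIs, 8726 of 9172 mix cells and 5535 of 5724 CD11b+ cells remained. On GRCm38 with GENCODE M21, Nos2 lies at chr11:78920787-78960254 and Slc7a2 at chr8:40862396-40922308. Ass1 lies at chr2:31470207-31520672, Odc1 at chr12:17544794-17551505, Sat1 at chrX:155213132-155216449 and Slc7a1 at chr5:148327410-148399904. Only Odc1 shares its strand with another annotated gene, Gm22748.

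Selp itself was almost absent from tumor-like cells, with 1 UMI in shNC 1, 1 in shNC 2, 0 in shSELP 1 and 0 in shSELP 2. Counts of 0 in the shSELP libraries allow up to 3.83 and 5.35 CPM (counts scaled to a common total of UMIs), above the 0.231 and 0.334 CPM seen in the shNC libraries. Macrophage-like cells held 4, 5, 6 and 6 UMIs of Selp in the mix and 4 in each CD11b+ library, microglia-like cells held 0 in every mix library, and endothelial-like cells held 8, 13, 15 and 7. These counts are too few to check the labels or the knockdown.

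Cells were assigned to 11 classes by fixed markers, as the class with the largest fraction of its markers detected and at least 3 of them. The mix gave 3436 macrophage-like cells (1013, 883, 607 and 933 in library order), 570 microglia-like, 60 neutrophil-like (6, 11, 25 and 18) and 561 tumor-like cells (281, 180, 54 and 46). The gate is a limit on a score, since 140 macrophage-like cells had exactly 3 markers, 460 of 8726 cells were left ungated by ties and 1461 of 3436 macrophage-like cells also passed another gate. Neutrophil markers averaged 0.662 of 8 in macrophage-like cells and 5.42 of 8 in neutrophil-like cells.

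Nos2, the inducible nitric oxide synthase, was a macrophage transcript in these tumors. Macrophage-like cells had 144 ± 60.5 CPM and did not overlap with endothelial-like cells at 16.3 ± 8.54. Microglia-like cells had 8.09 ± 3.24, oligodendrocyte-like 6.77 ± 1.87, neutrophil-like 6.54 ± 13.1, T-like 5.51 ± 4.56 and mural or fibroblast-like 4.81 ± 6.81. NK-like cells had 2.78 ± 3.54, tumor-like 1.97 ± 2.55, B or plasma-like 1.85 ± 3.71 and dendritic-like 0.997 ± 1.15, and each of these lower classes overlaps with the next. Positive cells made up 39.1% of macrophage-like cells at a median depth of 11633.5 UMIs and 1.43% of T-like cells at 6080.5. After thinning every cell to 2000 UMIs the shares were 18.1% and 0.400%. T-like cells are given here and below for comparison.

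Slc7a2, the inducible arginine carrier, and Ass1, which starts the rebuilding of arginine from citrulline, were both high in macrophage-like cells. Slc7a2 had 123 ± 26.5 CPM there, without overlap with mural or fibroblast-like cells at 57.8 ± 41.96. It then had 12.1 ± 17.3 in oligodendrocyte-like, 7.34 ± 4.73 in microglia-like, 3.52 ± 6.00 in tumor-like, 3.42 ± 1.42 in T-like, 1.94 ± 3.87 in endothelial-like, 1.85 ± 3.71 in B or plasma-like, 0.638 ± 1.28 in NK-like and 0.519 ± 1.04 in dendritic-like cells, all overlapping, and 0 in neutrophil-like cells. Slc7a2 was detected in 41.7% of macrophage-like and 0.993% of T-like cells, or 16.2% and 0.229% after thinning. Ass1 was highest in dendritic-like cells at 365 ± 54.6 CPM, overlapping with macrophage-like cells at 313 ± 74.8, and these did not overlap with T-like cells at 65.4 ± 20.2. It was 42.7 ± 27.7 in endothelial-like, 42.1 ± 50.9 in mural or fibroblast-like, 38.9 ± 16.2 in B or plasma-like, 38.3 ± 33.9 in oligodendrocyte-like, 32.2 ± 9.12 in microglia-like, 22.1 ± 23.1 in NK-like, 8.47 ± 16.9 in neutrophil-like and 1.32 ± 1.61 in tumor-like cells, each overlapping with the next. Ass1 was detected in 78.9% of macrophage-like and 22.0% of T-like cells, or 40.4% and 10.1% after thinning.

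Odc1, which makes putrescine from ornithine, was highest in T-like cells, and Sat1, which acetylates spermidine and spermine for export, was led by microglia-like cells. Odc1 had 1015 ± 179.9 CPM in T-like cells, without overlap with NK-like cells at 589.7 ± 131. It had 379 ± 73.0 in B or plasma-like, 346 ± 36.1 in microglia-like, 298 ± 51.8 in tumor-like, 245 ± 7.15 in macrophage-like, 241 ± 85.6 in dendritic-like, 221 ± 96.5 in mural or fibroblast-like, 219 ± 56.2 in oligodendrocyte-like, 203 ± 146 in endothelial-like and 135 ± 121 in neutrophil-like cells, with neighbours overlapping throughout. Positive cells were 69.5% of macrophage-like and 85.2% of T-like cells, or 29.9% and 64.3% after thinning. Sat1 had 1085 ± 112 CPM in microglia-like cells, against 736 ± 172 in neutrophil-like cells. Their ranges barely missed each other, with a lowest microglia-like value of 928 and a highest neutrophil-like value of 926 CPM. The neutrophil-like values rest on 157 UMIs in 60 cells. Overlapping values followed at 535 ± 101 in macrophage-like, 505 ± 215 in endothelial-like, 455 ± 142 in tumor-like, 329.9 ± 116 in mural or fibroblast-like, 327 ± 135 in oligodendrocyte-like, 248 ± 37.7 in dendritic-like, 218 ± 29.3 in NK-like and 179.9 ± 17.2 in T-like cells, and B or plasma-like cells were lowest at 114 ± 36.1 without overlap. Sat1 was detected in 93.1% of macrophage-like and 59.4% of T-like cells, or 58.4% and 29.3% after thinning.

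Slc7a1, the housekeeping arginine carrier, was highest in endothelial-like cells at 236 ± 91.9 CPM, without overlap with tumor-like cells at 82.1 ± 19.4. The rest overlapped with their neighbours, at 67.0 ± 17.03 in NK-like, 44.5 ± 5.34 in T-like, 39.0 ± 16.0 in B or plasma-like, 33.5 ± 11.6 in microglia-like, 33.4 ± 20.0 in oligodendrocyte-like, 31.9 ± 15.1 in dendritic-like, 31.5 ± 12.8 in mural or fibroblast-like, 18.8 ± 3.57 in macrophage-like and 17.2 ± 19.8 in neutrophil-like cells. Slc7a1 was detected in 17.8% of macrophage-like and 24.6% of T-like cells, or 3.75% and 8.12% after thinning.

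**Figure D1:**
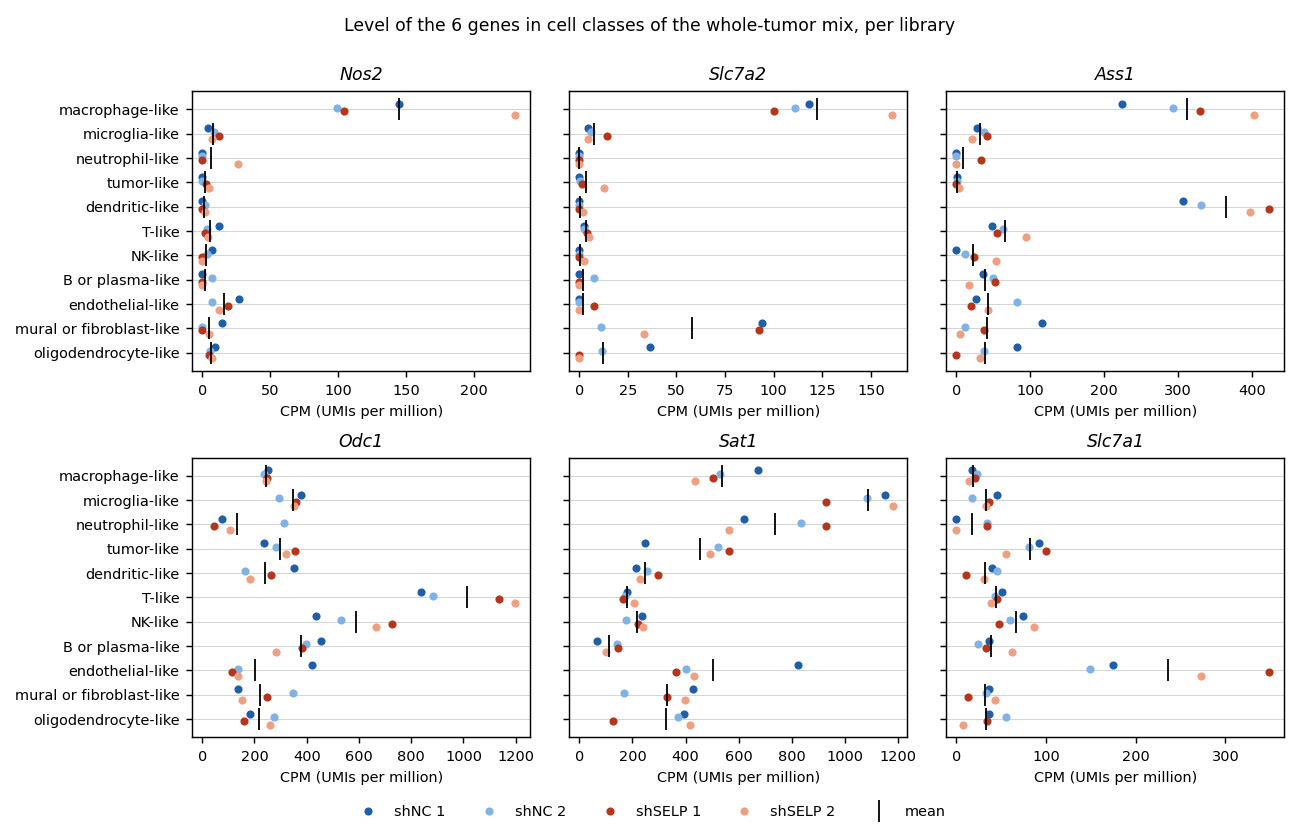
Level of each member (CPM of the summed UMIs of a class) in 11 classes of the mix, with 1 dot per library coloured by group and a black bar at the mean of 4. Nos2 and Slc7a2 peak in macrophage-like cells, Ass1 in dendritic-like, Odc1 in T-like, Sat1 in microglia-like and Slc7a1 in endothelial-like cells.

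Between macrophage-like and microglia-like cells of the same library, Nos2, Slc7a2 and Ass1 were on the macrophage side and Odc1 and Sat1 on the microglia side in all 4 libraries, with Slc7a1 on the microglia side in 3. Of 6 members, 3 were higher and 3 lower in macrophage-like cells, while 21.9% of all 10095 genes tested were higher and 21.7% lower. Nos2 was higher by a log2 of 4.02 ± 0.24 (estimate ± SE) in all 4 libraries (edgeR's quasi-likelihood test with library as a block and Benjamini-Hochberg adjustment, adjusted p = 4.13e-09). By the same test Slc7a2 was higher by 3.91 ± 0.25 (adjusted p = 9.87e-09) and Ass1 by 3.40 ± 0.18 (1.66e-09), each in all 4 libraries. Sat1 was lower by −0.90 ± 0.11 in all 4 libraries (adjusted p = 1.31e-05, same test), at 674, 530.5, 502 and 435 CPM in macrophage-like and 1151, 1083, 928 and 1178 CPM in microglia-like cells.

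Odc1 was also lower in macrophage-like than in microglia-like cells in all 4 libraries (log2 −0.36 ± 0.10, adjusted p = 0.00818 by edgeR's quasi-likelihood test with Benjamini-Hochberg adjustment), but without shNC 1 the value was −0.32 with an adjusted p of 0.0507, in a range of 0.000206 to 0.0752 over 11 alternatives (log2 −0.63 to −0.27). Slc7a1 was lower in 3 of 4 libraries (log2 −0.66 ± 0.21, adjusted p = 0.0216, same test), with shNC 2 the other way at 22.7 against 18.0 CPM. Its call ended without shNC 1 (−0.50), without shSELP 1 (−0.65) and without shSELP 2 (−0.52), and the adjusted p ran from 0.00119 to 0.574 over 11 alternatives. Without shSELP 1 the estimate of Slc7a2 rose to 4.80, and without cells that also pass another gate it was 7.97, with 6.44 for Nos2 and 6.52 for Ass1. The median over members was 1.52, against 0.10 for the wider list and −0.01 for all genes. TMM scaling, used by the test, lies 0.13 log2 above scaling by the total in this comparison.

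Of 32 genes of the wider list tested here, 7 were higher and 5 lower in macrophage-like cells. The most abundant were Oaz1, the antizyme that restrains Odc1 protein (log2 0.40 ± 0.10), the creatine-pathway enzyme Gatm (0.75 ± 0.12) and the hypusinated factor Eif5a (0.55 ± 0.10) on the higher side, each in all 4 libraries. Lower in all 4 libraries were the antizyme inhibitor Azin1 (−0.52 ± 0.13), the exporter Slc7a7 (−1.16 ± 0.15) and the hypusine enzyme Dhps (−0.50 ± 0.14). Without shSELP 1 the calls of Azin1 (−0.37) and Dhps (−0.40) ended.

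Neutrophil-like cells held only 206688 UMIs, so contrasts of macrophage-like cells with them are ratios to counts near 0. The test called 4 of 6 members higher in macrophage-like cells and 0 lower, beside 8.08% and 3.23% of 8884 genes, but 3 of the 4 had 0 to 3 UMIs in neutrophil-like cells, and nothing is read from this count. Nos2 had 2 UMIs there, a ratio of 16.2 with a 95% counting interval from 4.47 to 134. Ass1 had 3 UMIs, a ratio of 21.9 from 7.50 to 106, and Slc7a2 had 0 UMIs, so that macrophage-like cells were at least 8.83-fold higher against a floor of 3 UMIs over the 4 libraries (14.5 CPM), or 7.18-fold by the lower limit of the same 95% interval. Fitted values of such genes depend on the prior count and on single libraries. The fitted log2 of Nos2 was 4.37, and 12.06 without shSELP 2, and that of Ass1 was 4.93, and 14.09 and 4.23 without shSELP 1 and shSELP 2.

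Odc1 was higher in macrophage-like than in neutrophil-like cells in 3 of 4 libraries (log2 1.49 ± 0.51, adjusted p = 0.0344 by edgeR's quasi-likelihood test with Benjamini-Hochberg adjustment). Without shSELP 1 (1.18) or shSELP 2 (1.52) it was not called, and the adjusted p ran from 0.00210 to 0.296 over 11 alternatives. Sat1 (−0.04 ± 0.46) and Slc7a1 (0.29 ± 0.88) were not called. TMM scaling lies 0.48 log2 above scaling by the total here, and the median of all genes was 0.67. The median over members was 2.93 as fitted and 2.32 with Slc7a2 at the floor of 3 UMIs, and the wider list of 29 genes, 3 of them with 0 and 15 with 1 to 3 neutrophil UMIs, had 1.29 and 0.94. In that list 4 genes were called higher and 0 lower, 3 of the 4 with 0 to 3 neutrophil UMIs. Gatm (3 UMIs) had a ratio of 42.2 from 14.5 to 205, and Slc3a2 was higher by a log2 of 1.84 ± 0.50 in all 4 libraries but 1.90 and not called without shSELP 2. Paox (1 UMI) had a ratio of 7.61 from 1.36 to 301, with a fitted log2 of 3.23 and a call that ended when any library was left out (log2 2.63 to 10.86), and Asl with 0 UMIs was at least 2.21-fold higher against the floor, or 1.79-fold by the interval. With a library left out, 3 of the list were called without shNC 1, 2 without shNC 2 or shSELP 1 and 1 without shSELP 2.

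Tumor-like cells had next to none of Nos2, Slc7a2 and Ass1. Of 6 members, 5 were called higher after TMM scaling and 1 lower in macrophage-like cells, beside 35.9% higher and 35.2% lower of 11364 genes. Over 561 tumor-like cells there were 5 UMIs of Nos2, 9 of Slc7a2 and 9 of Ass1. Ass1 was higher in macrophage-like cells by a log2 of 8.71 ± 0.30 in all 4 libraries (adjusted p = 2.86e-11, edgeR's quasi-likelihood test with Benjamini-Hochberg adjustment). By the same test the log2 was 8.40 ± 0.43 for Nos2 (adjusted p = 9.42e-10) and 7.38 ± 0.47 for Slc7a2 (8.87e-09), each in all 4 libraries. Without shNC 1 these became 9.51 for Ass1, 7.37 for Nos2 and 6.46 for Slc7a2. Nos2 reached 9.08 without shSELP 1 and 9.50 without shSELP 2, and Slc7a2 reached 9.40 without shSELP 2.

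Slc7a1 was the only member called lower in macrophage-like than in tumor-like cells, by a log2 of −1.38 ± 0.15 in all 4 libraries (adjusted p = 2.35e-06, edgeR's quasi-likelihood test with Benjamini-Hochberg adjustment). Odc1 and Sat1 depend on the scaling, because TMM lies 0.76 log2 above scaling by the total in this comparison. Odc1 was called 0.50 ± 0.14 higher in macrophage-like cells (adjusted p = 0.00493, same test, all 4 libraries after TMM scaling), yet scaled by the total it was higher in only 1 of 4 libraries, at 251, 235, 249.5 and 245 CPM against 235, 282, 356 and 319. Sat1 was called 1.04 ± 0.22 higher (adjusted p = 0.000945, same test, all 4 libraries after TMM scaling) and was higher in 2 of 4 when scaled by the total, at 674, 530.5, 502 and 435 CPM against 246, 522, 562 and 490.3. No direction is given for these 2 members. The median over members was 4.21, against −0.50 for the wider list and −0.01 for all genes.

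Of 39 genes of the wider list tested here, 10 were called higher in macrophage-like and 21 higher in tumor-like cells after TMM scaling. The shares over all genes were 35.9% and 35.2%, and the list was not tested as a set. Spermidine synthase Srm (log2 −2.21 ± 0.16), Azin1 (−1.35 ± 0.13) and spermine synthase Sms (−1.28 ± 0.15) were lower in macrophage-like cells in all 4 libraries under both scalings. Gatm (3.74 ± 0.17), the carrier subunit Slc3a2 (1.65 ± 0.16) and spermine oxidase Smox (3.36 ± 0.18) were higher in all 4 libraries.

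Macrophage-like cells were divided by marker scores into 6 states, with 496 cells in the monocyte, 459 in the inflammatory, 316 in the resident-type, 401 in the lipid-associated, 461 in the interferon and 229 in the proliferating state, and 1074 in none. The states are ranges of scores, and 499 of 3436 cells lay within 0.1 of the limit. Median depths were 6961.5, 14562, 14759, 14182, 10883 and 13682 UMIs in that order and 12003.5 without a state. The monocyte state was led by Camp, S100a9, Ngp and S100a8, followed by Chil3, and the first 4 are also among the leading genes of neutrophil-like cells. Its cells had a median of 0 of 8 neutrophil and 6 of 8 macrophage markers, but 14 cells or 2.82% passed the neutrophil gate as well. In the inflammatory state the medians were 1 and 7 of 8.

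Nos2 was highest in the interferon state at 269 ± 35.5 CPM, followed by the inflammatory at 222 ± 118, the monocyte at 149 ± 48.9 and the lipid-associated at 135 ± 87.5, and by 87.1 ± 46.3 without a state, 84.5 ± 40.9 in the resident-type and 83.4 ± 25.6 in the proliferating state. For every member the ranges of neighbouring states overlap.

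Slc7a2 was highest in the inflammatory state at 201 ± 50.01 CPM, with 139 ± 42.5 in the lipid-associated, 123 ± 20.2 in the interferon, 106 ± 37.5 in the resident-type, 95.4 ± 35.3 in the proliferating and 69.8 ± 18.4 in the monocyte state, and 96.9 ± 29.9 without one. Ass1 was highest in the monocyte state at 479.5 ± 141, with 384 ± 72.9 in the interferon, 328 ± 67.5 in the inflammatory, 284 ± 82.5 in the proliferating, 205 ± 48.9 in the resident-type and 179 ± 15.2 in the lipid-associated state, and 330.0 ± 60.8 without one.

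The spread across states was not compared between members. Odc1 ran from 329.8 ± 70.4 CPM in the proliferating state over 269 ± 42.9 in the resident-type, 268 ± 22.2 in the inflammatory, 213 ± 23.9 in the interferon and 196 ± 15.2 in the lipid-associated to 189 ± 21.9 in the monocyte state, with 259.7 ± 26.0 outside the states. Sat1 ran from 674 ± 223 in the lipid-associated over 667 ± 45.6 in the resident-type, 653 ± 137 in the monocyte, 521 ± 84.9 in the interferon and 489 ± 81.4 in the proliferating to 410.0 ± 93.4 in the inflammatory state, with 479.5 ± 69.5 outside. Slc7a1 was low everywhere, at 24.3 ± 5.35 in the proliferating, 19.6 ± 5.25 in the inflammatory, 18.6 ± 6.92 in the monocyte, 18.1 ± 6.83 in the interferon, 17.2 ± 3.35 in the resident-type and 13.3 ± 3.86 in the lipid-associated state, with 21.2 ± 5.10 outside.

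**Figure D2:**
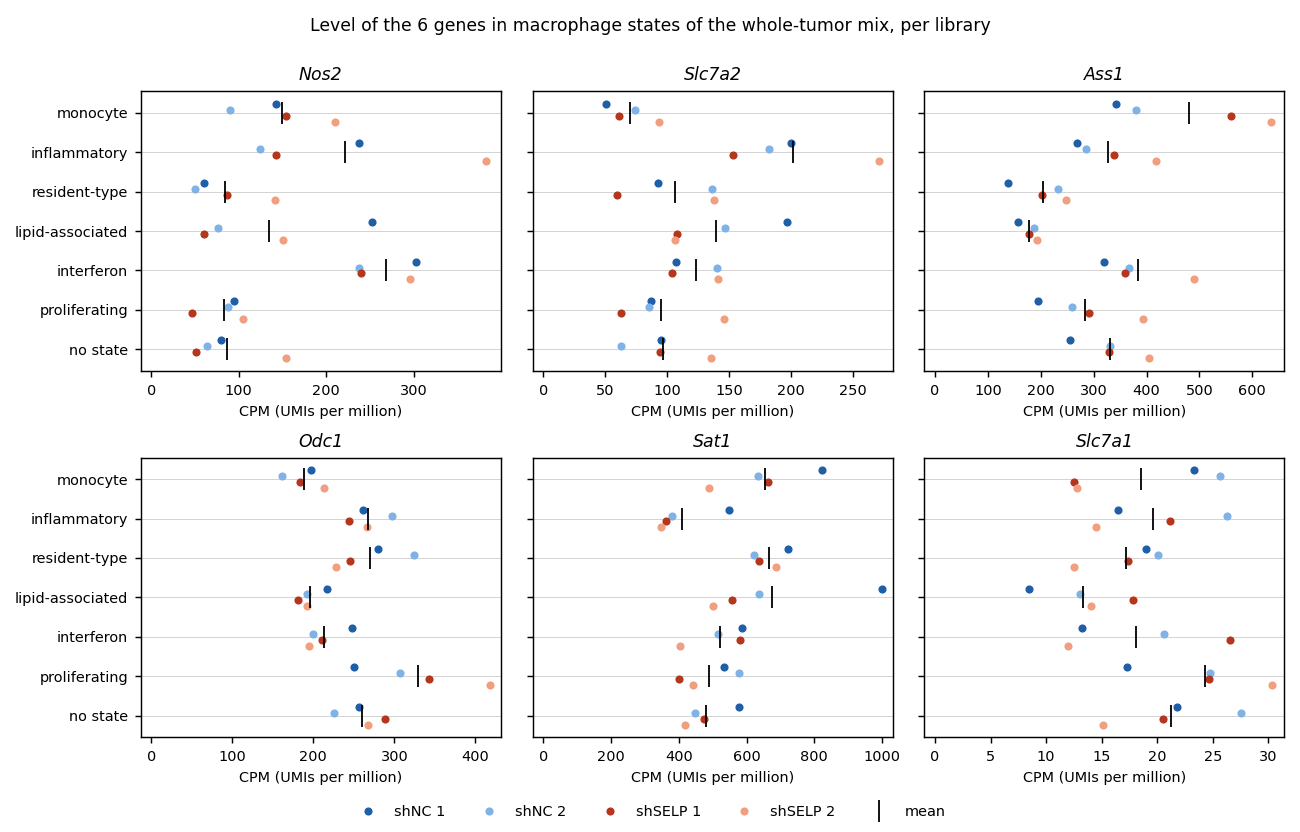
Level of each member (CPM of the summed UMIs of a state) in 6 macrophage states and in macrophage-like cells without a state, mix libraries, with 1 dot per library coloured by group and a black bar at the mean of 4. Slc7a2 is highest in the inflammatory state and Nos2 in the interferon state, with ranges that overlap between neighbours.

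In the inflammatory state Slc7a2 and Nos2 rose together. Against the other macrophage-like cells 2 of 6 members were higher and 1 lower, beside 4.09% and 3.04% of 9606 genes. Slc7a2 was higher by 0.99 ± 0.07 in all 4 libraries (adjusted p = 1.14e-07, edgeR's quasi-likelihood test with library as a block and Benjamini-Hochberg adjustment). By the same test Nos2 was higher by 0.84 ± 0.09 (adjusted p = 9.12e-06), and Sat1 was lower by −0.37 ± 0.05 (0.000175), each in all 4 libraries. Odc1 was called without shNC 1 or shSELP 1 (0.25 to 0.28) but not with all libraries (0.23 ± 0.07, adjusted p = 0.0525). Over members the median was 0.20, against 0.02 for the wider list and −0.00 for all genes. Of 30 genes of the wider list 1 was higher, Smox (0.39 ± 0.07), and 0 were lower, with 2 called in all when shSELP 1 was left out.

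The interferon state had more Nos2 and Ass1. Of 6 members 2 were higher and 0 lower, beside 7.27% and 3.69% of 9395 genes. Nos2 was higher by 1.19 ± 0.13 in all 4 libraries (adjusted p = 6.49e-07, edgeR's quasi-likelihood test with Benjamini-Hochberg adjustment), at 303, 237, 239 and 296 CPM, and Ass1 by 0.40 ± 0.06 in all 4 (adjusted p = 0.000145, same test). Odc1 was called lower without shNC 1 (−0.27) and without the filter (−0.22), not otherwise. As a list, the members had a median of 0.03, against −0.06 for the wider list and −0.02 for all genes. Of 29 genes of the wider list 1 was higher and 3 lower. Gch1, which makes the cofactor of nitric oxide synthase, was higher (0.57 ± 0.08), and Atp13a3 (−0.41 ± 0.10), Paox (−0.60 ± 0.13) and Srm (−0.66 ± 0.17) were lower, each in all 4 libraries. The call of Atp13a3 ended without shNC 1, shSELP 1 or shSELP 2 (−0.39 to −0.35), that of Paox without shSELP 2 (−0.48) and that of Srm without shNC 1 (−0.59), and 2 of the list were called in all without shSELP 2. Over 11 alternatives the call of Srm held in 5 (log2 −0.81 to −0.17). That of Atp13a3 held in 4 (−0.90 to −0.29) and that of Paox in 8 (−0.97 to −0.48).

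The lipid-associated state had more Sat1 and less Ass1. Of 6 members 1 was higher and 2 lower, beside 7.78% and 8.43% of 9388 genes. Sat1 was higher by 0.42 ± 0.08 in all 4 libraries (adjusted p = 0.00242, edgeR's quasi-likelihood test with Benjamini-Hochberg adjustment), and Ass1 (−0.81 ± 0.09, 2.60e-05) and Odc1 (−0.31 ± 0.07, 0.00800) were lower, each in all 4 libraries by the same test. The call of Odc1 ended without shNC 2 (−0.30) or shSELP 2 (−0.29). Nos2 was called lower without shNC 1 (−0.58), and without shSELP 2 Slc7a2 was called higher (0.62) and Slc7a1 lower (−0.78). The members had a median log2 of −0.20, against −0.04 for the wider list and 0.00 for all genes. Of 30 genes of the wider list 1 was higher and 2 lower, in all 4 libraries each. Polyamine oxidase Paox was higher (0.84 ± 0.14), and Gatm (−0.42 ± 0.08) and Eif5a (−0.27 ± 0.06) were lower. The call of Paox held in 10 of 11 alternatives (log2 0.445 to 1.26). That of Gatm held in 8 (−0.54 to −0.22) and that of Eif5a in 7 (−0.32 to −0.23). Without shSELP 2 the calls of Gatm (−0.35) and Eif5a (−0.26) ended, so that 1 of the list was called, and 5 were called without shNC 1.

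The monocyte state had more Ass1 and less Slc7a2. Of 6 members 2 were higher and 2 lower, beside 15.5% and 13.6% of 9264 genes. Ass1 was higher by 0.70 ± 0.08 in all 4 libraries (adjusted p = 1.24e-05, edgeR's quasi-likelihood test with Benjamini-Hochberg adjustment) and Sat1 by 0.34 ± 0.07 (0.00239, same test, all 4). Slc7a2 was lower by −0.84 ± 0.11 (5.77e-05) and Odc1 by −0.38 ± 0.08 (0.00361), each in all 4 libraries by the same test. The member median was 0.05, against −0.07 for the wider list and −0.03 for all genes. Of 29 genes of the wider list 4 were higher and 8 lower, or 6 called in all when shNC 2 was left out. Gch1 (0.92 ± 0.09) and Smox (0.70 ± 0.10) were higher and Gatm (−1.303 ± 0.088), Atp13a2 (−0.78 ± 0.13) and Qdpr (−0.88 ± 0.17) lower in all 4 libraries. The calls of Atp13a2 (log2 −0.89 to −0.37) and Qdpr (−1.07 to −0.73) each held in 10 of 11 alternatives. Oaz1 was 0.20 ± 0.06 higher in all 4, but its call ended without shNC 2, shSELP 1 or shSELP 2 (0.19 each).

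Neutrophil markers also moved with this state. The 8 of them summed to 227, 2432, 5157 and 140 CPM in the monocyte state of shNC 1, shNC 2, shSELP 1 and shSELP 2, against 57.0, 61.96, 101 and 95.8 in the other macrophage-like cells. The most abundant was S100a8 in 3 libraries and Csf3r in shSELP 2, and 1 or 2 of the 8 were at 0. Without the 2 most abundant the sums were 72.6, 83.7, 97.2 and 43.8 CPM in library order. In the other macrophage-like cells they were then 14.3, 14.0, 35.1 and 15.4. Without the cells that pass another gate, Ass1 was higher by 0.38 and Odc1, at −0.23, was not called (adjusted p = 0.0963, in a range of 4.62e-06 to 0.272 over 11 alternatives). The part of neutrophil RNA in the values of this state was not tested.

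Against the other macrophage-like cells, the resident-type state was lower in Nos2. Of 6 members 1 was higher and 2 lower, beside 3.09% and 3.81% of 9566 genes. Nos2 was lower by −0.97 ± 0.13 (adjusted p = 0.000190, edgeR's quasi-likelihood test with Benjamini-Hochberg adjustment) and Ass1 by −0.67 ± 0.10 (0.000362), each in all 4 libraries by the same test. Sat1 was higher by 0.36 ± 0.09 in all 4 (adjusted p = 0.0249, same test), but not without shNC 1 (0.44), shNC 2 (0.38) or shSELP 2 (0.25), and its adjusted p ran from 0.0188 to 0.477 over 11 alternatives. The median over members was −0.14, against −0.00 for the wider list and −0.00 for all genes. Of 29 genes of the wider list 3 were higher and 1 lower. Atp13a2 (0.50 ± 0.10), Paox (0.68 ± 0.13) and Slc7a7 (0.47 ± 0.13) were higher and Gch1 (−0.58 ± 0.10) was lower in all 4 libraries. The call of Paox ended without shNC 1 (0.63) and that of Slc7a7 without any 1 library (0.41 to 0.52), and 2 of the list were called in all without shNC 1. The call of Atp13a2 held with each library left out, but it ended after thinning (0.0432), with the stricter gate (0.46), without cells of another gate (0.38), without the deepest cells (0.39) and with no replicate block (0.48), with an adjusted p of 0.00237 to 0.981 over 11 alternatives. That of Gch1 ended after thinning (−0.68) and without cells of another gate (−0.77).

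Microglia markers moved with the states. Cells that also pass the microglia gate made up 69.9% of the resident-type, 49.3% of the proliferating, 40.9% of the lipid-associated, 38.6% of the inflammatory, 27.8% of the interferon and 4.84% of the monocyte state, and 39.5% of cells without a state. The 8 markers summed to 1231, 1067, 1363 and 1006 CPM in the resident-type state in library order, against 831, 848, 906 and 664 in the other macrophage-like cells and 6009, 5926, 7258 and 6079 in microglia-like cells. In the lipid-associated state they summed to 987, 1218, 1239 and 833, against 896, 793, 896 and 668 in the other macrophage-like cells. The proliferating state had 1016, 920, 1083 and 702 against 893, 865, 925 and 687. The inflammatory state had 773, 797, 711 and 577 against 926, 878, 978 and 720. The interferon state had 649, 700, 946 and 636 against 935, 895, 931 and 697. In the monocyte state they summed to 339, 304, 348 and 398. Of the 8, 1 or 2 were at 0 in the resident-type and 2 or 3 in the monocyte state. Without cells that pass another gate, Nos2 (−2.15) and Ass1 (−0.91) were called lower in the resident-type state, and Sat1 (0.40) had none. The part of microglia transcripts in the values of the states was not tested.

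In the proliferating state 0 of 6 members were higher and 3 lower, beside 7.13% and 5.96% of 9539 genes. Nos2 was lower by −0.82 ± 0.15 (adjusted p = 0.00127, edgeR's quasi-likelihood test with Benjamini-Hochberg adjustment) and Slc7a2 by −0.51 ± 0.11 (0.00415), each in all 4 libraries by the same test. Ass1 was lower by −0.27 ± 0.08 in all 4 libraries (adjusted p = 0.0311, same test), but its call ended without shNC 1 (−0.26), shNC 2 (−0.28) or shSELP 1 (−0.26), in a range of 0.00288 to 0.475 over 11 alternatives. TMM scaling lies −0.11 log2 from scaling by the total here. Without shNC 1 the call of Slc7a2 ended (−0.48) and Odc1 was called higher (0.46), which left 2 of 6 members called, and Sat1 was called lower without shNC 2 (−0.36). Over members the median was −0.26, against 0.07 for the wider list and −0.01 for all genes. Of 29 genes of the wider list 2 were higher and 2 lower, with 1 called in all without shSELP 1. Gatm (0.36 ± 0.07) and Pycrl (0.97 ± 0.28) were higher and Gch1 (−0.51 ± 0.13) and Atp13a2 (−0.45 ± 0.14) lower in all 4 libraries. The call of Pycrl ended without shNC 1, shSELP 1 or shSELP 2 (0.81 to 1.01), that of Gch1 without shSELP 1 (−0.48) and that of Atp13a2 without shNC 2, shSELP 1 or shSELP 2 (−0.44 to −0.36). Over 11 alternatives the call of Gatm held in 8 (log2 0.22 to 0.43). That of Gch1 held in 7 (−0.62 to −0.36) and that of Atp13a2 in 3 (−0.67 to −0.23).

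Nos2 and Slc7a2 were found in the same macrophage-like cells more often than chance pairing within a library gives, and had the highest thinned ratio of the 15 pairs of members. Cells with both numbered 198, 144, 108 and 357 in the mix, where 139, 104, 67.6 and 276 were expected from the product of their shares. The ratios were 1.42, 1.39, 1.60 and 1.29 in the mix and 2.41 and 2.06 in CD11b+ shNC and shSELP, with 64 and 82 such cells against 26.6 and 39.8 expected. After thinning to 2000 UMIs per cell they were 1.57, 1.52, 1.55 and 1.32 in the mix and 2.11 and 2.24 in the CD11b+ libraries. All 6 ratios lay above 1 under both, and the odds ratios were 2.88, 2.43, 3.78, 4.33, 3.72 and 3.002, or 2.05, 1.82, 1.83, 1.69, 2.49 and 2.85 after thinning. The ratio cannot exceed the inverse of the larger share of a pair, so its ceiling is lower for widely detected genes such as Sat1 and Ass1. Ratios of pairs or libraries with unlike detection are therefore not directly comparable. In shSELP 2 the unthinned ratio was the lowest (1.29) and the odds ratio the highest (4.33). No test was made, since cells of a library are not independent replicates.

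Cells with both transcripts made up 19.5, 16.3, 17.8 and 38.3% of macrophage-like cells in the mix and 2.79 and 3.28% in the CD11b+ libraries, whose median depths were 4295 and 3728 UMIs. Slc7a2 was detected in 54.5, 50.7, 57.1 and 70.1% of Nos2-positive and 29.4, 29.7, 26.1 and 35.1% of Nos2-negative macrophage-like cells of the mix. The median ratio over 6 libraries was 1.51, and it was 1.56 thinned, 1.92 with at least 2 UMIs of each gene, 1.53 without the deepest 5% of cells, 1.47 with the stricter gate and 1.65 without cells that pass another gate. T-like cells with both numbered 3, 4, 1 and 3, microglia-like cells 0, 0, 4 and 1, and neutrophil-like and tumor-like cells 0 in every library. A droplet that holds 2 macrophages cannot be told apart from a cell with both transcripts.

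In the inflammatory state the unthinned ratios were 1.07, 1.07, 1.28 and 1.03 in the mix. In the monocyte state they were 2.29, 2.39, 2.09 and 1.54, from 14, 20, 7 and 25 cells with both. After thinning, at most 7 monocyte-state cells of a library had both transcripts, and at least 3 were expected only in shSELP 2, at a ratio of 1.05. No difference between states is claimed.

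Among the other pairs, Nos2 and Ass1 had a thinned median of 1.12 over 4 mix libraries, above 1 in all 6 libraries, while Sat1 and Slc7a1 (1.18) and Slc7a2 and Odc1 (1.17) were above 1 in all 4 mix libraries and 1 CD11b+ library. The lowest were Slc7a2 and Slc7a1 at 0.730 and Nos2 and Odc1 at 0.840, each below 1 in 3 of 4 mix libraries, but without thinning they had 1.12 and 1.06, and the former rests on as few as 4.26 expected cells. Over all 6 libraries, thinned ratios lay above 1 in 2 for Slc7a2 and Slc7a1. For Nos2 and Odc1 they did so in 3, both CD11b+ libraries among them.

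**Figure D3:**
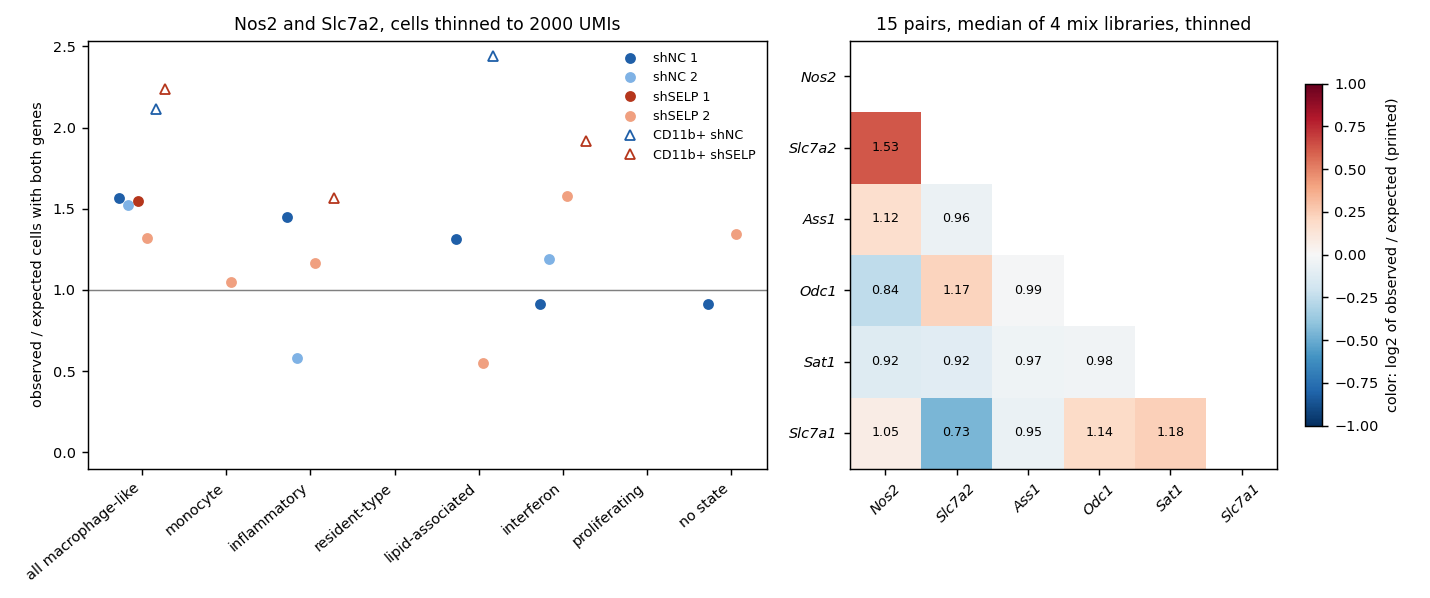
Left, number of macrophage-like cells with both Nos2 and Slc7a2 divided by the number expected, cells thinned to 2000 UMIs, for all macrophage-like cells, 6 states and no state, with dots for mix libraries and open triangles for CD11b+ libraries, shown where at least 3 cells were expected. Right, the same ratio for 15 pairs of members as the median of 4 mix libraries, highest for Nos2 with Slc7a2.

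Across 28 points, the 6 states and the cells without a state in 4 mix libraries, the genes most like Nos2 among 2509 were Chd7 (Pearson r = 0.75), Fbxl5 (0.68), the glucose carrier Slc2a1 (0.67), Cd274 (0.66) and Il1rn (0.66). Slc7a2 came 46th at 0.49, and Ass1 had 0.43, Sat1 −0.08 and Odc1 −0.29. The points share libraries and depth, and the states were defined by expression, so these values carry no p.

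No member passed the test in macrophage-like cells of shSELP tumors. At an adjusted p under 0.05, 0 of 6 members were called, as were 0% of 11175 genes in the higher and 0% in the lower direction by edgeR's quasi-likelihood test with Benjamini-Hochberg adjustment, with 1448 genes and 1 member at unadjusted p under 0.05 and 123 genes called by DESeq2. Levels in shNC 1, shNC 2, shSELP 1 and shSELP 2 were 145, 98.7, 104 and 229.7 CPM for Nos2, and shSELP 2 was highest while shSELP 1 lay between the shNC libraries, so the groups overlap.

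Ass1 was the member nearest to a call, with 224 and 294 CPM in shNC and 331 and 403 in shSELP, so both shSELP libraries lay above both shNC libraries. The share of all genes that separate in this way in the whole class was not counted, for Ass1 or for Sat1 below. Nothing is read from such a separation alone. The log2 of Ass1 was 0.56 ± 0.15 (adjusted p = 0.221, edgeR's quasi-likelihood test with Benjamini-Hochberg adjustment, unadjusted p = 0.00817), in 2 of 2 shSELP libraries. DESeq2 called Ass1 (0.56, adjusted p = 0.0381), and over 12 alternatives the adjusted p ran from 0.0212 to 0.671, so no change is claimed.

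Sat1 went the other way, with 674 and 530.5 CPM in shNC and 502 and 435 in shSELP, without overlap and without a call (log2 −0.32 ± 0.14, adjusted p = 0.405 by edgeR's quasi-likelihood test with Benjamini-Hochberg adjustment, lower in 2 of 2 shSELP libraries). By the same test Nos2 had 0.51 ± 0.36 (adjusted p = 0.605), Slc7a2 0.25 ± 0.21 (0.680), Odc1 0.07 ± 0.09 (0.8005) and Slc7a1 −0.18 ± 0.19 (0.738), with libraries of the groups overlapping. Without shSELP 2 the values of Nos2 and Slc7a2 turned to −0.20 and −0.17 and that of Slc7a1 to 0.05. With a library left out, Sat1 ran from −0.50 to −0.11. The values in library order were 118, 111, 100.2 and 161 CPM for Slc7a2, 251, 235, 249.5 and 245 for Odc1 and 17.5, 22.7, 20.4 and 14.5 for Slc7a1. As a list, the members had a median of 0.16, against −0.05 for 35 genes of the wider list and −0.00 for all genes. In the wider list 0 genes were called and 12 had an unadjusted p under 0.05.

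The shares of the states among macrophage-like cells also varied between libraries. Their difference between groups was not tested, and the shares within a library depend on each other. In library order the lipid-associated state made up 12.6, 15.5, 7.74 and 9.54%, the inflammatory 11.5, 8.83, 14.3 and 18.97%, the resident-type 16.2, 7.02, 6.43 and 5.47% and the proliferating 9.28, 6.91, 5.27 and 4.50%, and cells without a state 28.4, 30.5, 37.6 and 31.0%, all without overlap of the groups. The interferon state, at 10.1, 14.3, 13.3 and 16.3%, and the monocyte state, at 11.8, 16.99, 15.3 and 14.3%, overlapped. Within the 6 states and the cells without one, both shSELP libraries lay above both shNC libraries in 3 of 7 for Ass1, 2 each for Nos2 and Odc1, 1 for Slc7a1 and 0 for Slc7a2 and Sat1. They lay below in 3 each for Sat1 and Slc7a1, 1 each for Slc7a2 and Odc1 and 0 for Ass1 and Nos2. Over 4898 genes with at least the UMIs of Slc7a1, the member with fewest, 17.5% of these sets lay above and 23.6% below. The part of the state shares in the levels of Ass1 and Sat1 was not tested.

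**Figure D4:**
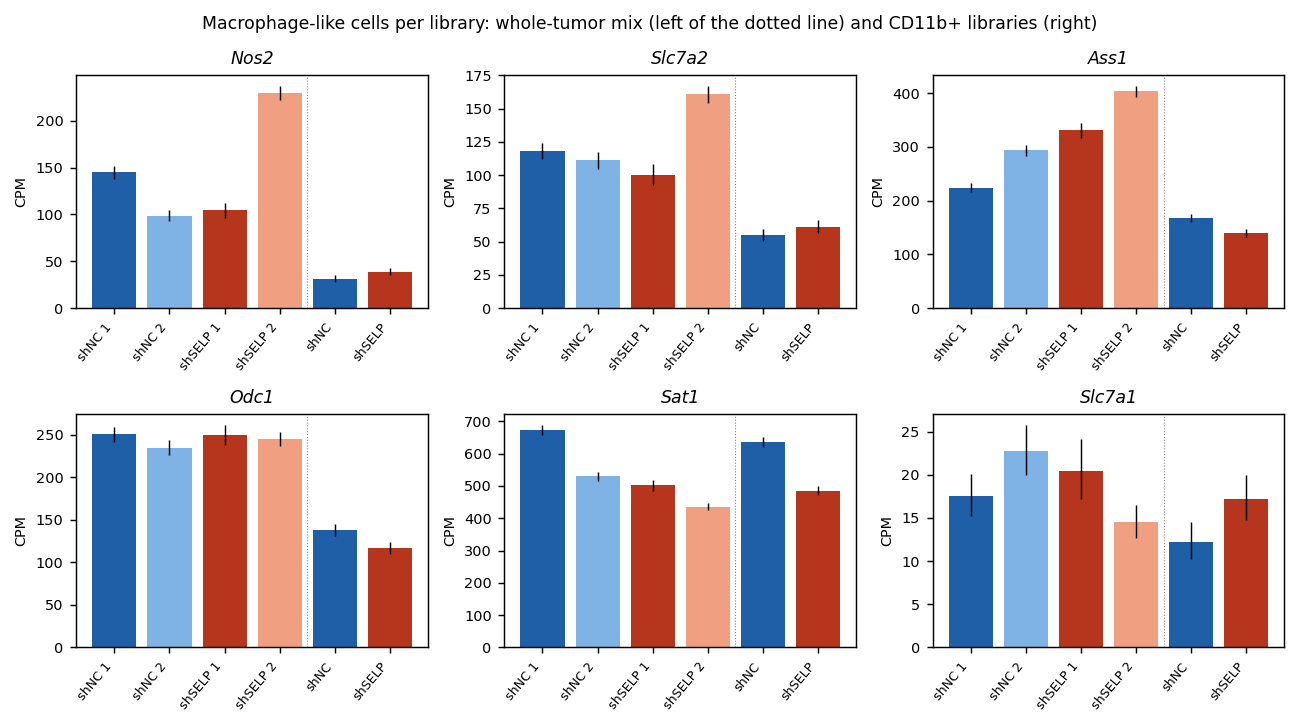
Level of each member in macrophage-like cells of the 4 mix and 2 CD11b+ libraries (CPM, bars) with 95% Poisson intervals of the count, coloured by group. Nos2 and Slc7a2 are highest in shSELP 2, Ass1 of the mix is higher in both shSELP libraries, and Sat1 is lower in shSELP in both experiments.

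In microglia-like cells 0 of 5 members tested were called (Slc7a2 had too few counts), beside 0.23% of 7820 genes higher and 0.294% lower by edgeR's quasi-likelihood test with Benjamini-Hochberg adjustment. There were 41 called genes, 1115 genes and 0 members at unadjusted p under 0.05, and DESeq2 called 48 genes. The member median was 0.05 against 0.00 for all genes. In the wider list 1 of 29 genes was called, Paox, at −1.40 ± 0.25 (adjusted p = 0.0296, same test, lower in 2 of 2 shSELP libraries). That call ended without shNC 1 or shNC 2 (−1.48 to −1.34), its adjusted p ran from 0.000204 to 0.223 over 8 alternatives, and between 0 and 2 genes of the list were called when a library was left out.

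Neutrophil-like cells allowed a fit for Sat1 alone (log2 0.22 ± 0.63, adjusted p = 0.999 by edgeR's quasi-likelihood test with Benjamini-Hochberg adjustment, at 621 and 833 CPM in shNC and 926 and 562 in shSELP), and 0 of 1 member was called beside 0% higher and 0% lower of 771 genes. At unadjusted p under 0.05 there were 28 genes, and DESeq2 called 1. TMM scaling lies 0.16 log2 above scaling by the total in this comparison. The other 5 members were not tested for lack of counts.

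In tumor-like cells, the cells that carry the hairpin, 0 of 3 members tested were called, beside 0.341% of 9981 genes higher and 0.0701% lower by edgeR's quasi-likelihood test with Benjamini-Hochberg adjustment, with 1325 genes and 0 members at unadjusted p under 0.05 and 59 genes by DESeq2. Odc1 had 235 and 282 CPM in shNC and 356 and 319 in shSELP without overlap (log2 0.33 ± 0.18, adjusted p = 0.469, same test, higher in 2 of 2 shSELP libraries). The share of all genes without such overlap in tumor-like cells was not counted. Sat1 (0.40 ± 0.29, adjusted p = 0.579) had 246 and 522 against 562 and 490.3 CPM, with overlap, and Slc7a1 (−0.20 ± 0.26, 0.773) had 92.6 and 81.2 against 99.5 and 55.3, with overlap, by the same test. Sat1 was called only without shNC 2 (0.98, adjusted p = 0.00424, in a range of 0.00424 to 0.9996 over 11 alternatives). In the wider list 0 of 35 genes were called, and 2 had an unadjusted p under 0.05. The members had a median log2 of 0.33, against 0.03 for the wider list and −0.01 for all genes.

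The response of macrophage-like cells did not separate from that of microglia-like cells in any member, with 0 of 6 called beside 0.228% of 10951 genes higher and 0.247% lower by edgeR's quasi-likelihood test with Benjamini-Hochberg adjustment. There were 1004 genes and 0 members at unadjusted p under 0.05, and DESeq2 called 22 genes. In the wider list 1 of 34 genes was called, Paox (1.35 ± 0.27, adjusted p = 0.0241, same test), and that call ended without shNC 2 or shSELP 1 (1.26 to 1.44), in a range of 0.00134 to 0.9495 over 10 alternatives, while 2 genes of the list were called without shNC 1 or without shSELP 2. The member median was −0.10, against −0.05 for the wider list and −0.01 for all genes.

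For the CD11b+ cells, of a later day by the labels, there was 1 library per group and no test. Macrophage-like cells numbered 2291 (shNC) and 2498 (shSELP) at median depths of 4295 and 3728 UMIs. Nos2 had 31.4 and 38.9 CPM (log2 ratio of shSELP to shNC 0.31, 95% counting interval 0.10 to 0.53). Sat1 had 635 and 485 (−0.39, −0.44 to −0.33), the same direction as in the mix. Ass1 had 167 and 139.6 (−0.26, −0.36 to −0.16), opposite to the mix. The intervals cover counting error only, and a single library per group gives no measure of spread between tumors.

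The others were Slc7a2 with 54.7 and 61.3 CPM (0.16, −0.00 to 0.33), Odc1 with 138 and 117 (−0.23, −0.35 to −0.12) and Slc7a1 with 12.2 and 17.2 (0.49, 0.16 to 0.83). Counting intervals lay above 0 for 2 and below 0 for 3 of 6 members, beside 37.4% above and 21.3% below of 5498 genes with at least 305 UMIs, the count of the member with fewest. With TMM scaling these shares were 26.8% and 30.4%, and the median of those genes moved from 0.08 to −0.01. Nos2 was detected in 7.64 and 9.69% of CD11b+ macrophage-like cells, or 4.64 and 6.53% after thinning. In the 17 T-like cells of these libraries, at a median depth of 2584 UMIs, Nos2 was detected in 5.88%. Across states, with 761 of 4789 cells within 0.1 of the limit, Nos2 had 50.1 and 79.9 in the interferon, 77.0 and 44.8 in the lipid-associated, 47.8 and 65.4 in the inflammatory, 21.0 and 58.3 in the monocyte, 28.01 and 15.7 in the proliferating and 8.42 and 18.1 in the resident-type state. The interferon state made up 7.42 and 16.6% of these cells, and its part in the level of Nos2 was not tested.

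The replicated comparisons rest on 2 libraries per group, and the CD11b+ comparison on 1. Classes and states were gated on transcripts, so a level in a state partly reflects how the state was drawn, and stray RNA and mixed droplets were not modelled. Transcripts were counted, not enzyme activity, arginine, nitric oxide or polyamines. Tumor-like cells of the shSELP libraries numbered 54 and 46, and neutrophil-like cells 60 in all, so their contrasts are the least secure.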

How the data were processed

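Droplet-based single-cell RNA was measured in 4 libraries of a mix of cells from GL261 tumors and in 2 libraries of CD11b+ cells. The authors aligned reads to mm10 with Cell Ranger 1.3 and deposited integer UMI counts for each gene in each cell, without scaling. The tables have 20300 genes (mix) and 14363 genes (CD11b+). Columns were joined to libraries by their prefix, and pairs of libraries shared between 0 and 3 barcodes over 15 pairs.

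Cells were kept from 500 genes upward if no more than 10% of their UMIs were mitochondrial, which left 22874762, 22546742, 17323095 and 25512125 UMIs in shNC 1, shNC 2, shSELP 1 and shSELP 2 and 12532788 and 11406051 in CD11b+ shNC and shSELP. A cell was given the class with the highest fraction of its markers detected, with at least 3 markers (4 in the stricter gate) and ties left ungated. Macrophage-like cells were given the state with the highest mean z-score above 0.5 (0.8 in the stricter gate). The scoring rule was set after the data had been seen. The members and lists were chosen with earlier results of these data known. Some planned genes, and the results that need them, are not reported here. No doublet caller was run, and doublets were treated by 2 alternatives, leaving out the deepest 5% of cells or cells that pass another gate.

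UMIs were summed per library and class or state. Sums were compared with edgeR 4.0.16 (filterByExpr, TMM scaling, quasi-likelihood F test) in R 4.3.3, with library as a block within libraries, Benjamini-Hochberg adjustment over all genes tested and an adjusted p under 0.05 as a call, and with DESeq2 1.42.0 as an alternative. The design, the fit and the calls were tested on simulated data. Of 200 genes given a log2 change of 2, 47% were recovered for macrophage-like against neutrophil-like cells and 75% for the difference of responses. At least 98% were recovered elsewhere. For shSELP against shNC in macrophage-like cells, the log2 values of members were smaller than 2, from −0.32 to 0.56. Recovery of changes of that size, or at the spread seen between these libraries, was not tested. The share of false calls ran from 1.05 to 7.83%, highest for shSELP against shNC in macrophage-like cells. Other alternatives were no filter on low counts, thinning to 2000 UMIs (seed 1), no block, blocks of replicate number, and each library left out. The 6 members are named throughout, and of 46 other pathway genes at most 3 called per direction with the highest mean CPM (counts scaled to a common total of UMIs). Genes alike were ranked by Pearson r of log2 of CPM plus 10 among genes that averaged 50 CPM or more, without gate markers. Co-detection is the number of cells with at least 1 UMI of both genes over the number expected from the product of shares, computed for all 15 pairs of members and shown in detail for the pair with the highest ratio. Intervals are 95% exact Poisson intervals for levels and conditional binomial intervals for ratios, and a count of 0 allows up to 3 UMIs. Coordinates come from GENCODE M21. Python 3.11.15, numpy 2.4.6, scipy 1.17.1, pandas 2.3.3 and matplotlib 3.10.9 made tables and figures.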

Additional observations from a re-analysis of the deposited data

Results flagged for a closer look

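Ass1 differed in direction between the experiments. In macrophage-like cells of the CD11b+ libraries its log2 ratio of shSELP to shNC was −0.26, and in the mix, scaled in the same way, it was 0.50. The difference was not tested. The labelled day of isolation, cell sorting and depth differ between the experiments and cannot be told apart. Sat1 had the same direction in both.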

How the results depend on the processing

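Each comparison with a test was refitted with DESeq2, without the filter on low counts, with cells thinned to 2000 UMIs, with a stricter gate, without cells that also pass another gate, without the deepest 5% of cells, and with each library left out. Every alternative could be fitted, although members with few counts dropped out of some, and thinning left 1 neutrophil-like cell in shNC 1. With one library left out, an arm of 1 sample is assumed to vary like the others. Among single genes, 660 of the values outside leave-one-out kept their call and direction, 98 lost a call, 9 gained one, 36 changed sign and 2 of the untested CD11b+ ratios left their counting interval. The cause was not tested.

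Of 34 called values of members, calls ended in 3 by DESeq2, 1 without the filter, 8 after thinning, 0 with the stricter gate, 6 without cells of another gate, 2 without the deepest cells and 11 with no replicate block. The log2 moved by over 1.5 times in 1, 0, 6, 1, 12, 1 and 0 of them in the same order. Of the called values of the wider list, thinning ended the call in 20 of 37 and the absence of cells of another gate in 14 of 38.

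For macrophage-like against microglia-like cells, Nos2 was 6.44 (from 4.02), Slc7a2 7.97 (from 3.91), Ass1 6.52 (from 3.40) and Odc1 −0.61 (from −0.36) without cells of another gate, Odc1 was −0.63 and Slc7a1 −0.28 (from −0.66) after thinning, and the calls of Odc1 without the filter (−0.27) and of Slc7a1 by DESeq2 (−0.65) and after thinning ended. Against neutrophil-like cells, where the fitted values of Nos2, Ass1 and Slc7a2 rest on 0 to 3 UMIs and moved with the settings, Odc1 was 2.43 (from 1.49) without cells of another gate, and its call ended by DESeq2 (1.31) and after thinning (1.42). Against tumor-like cells the call of Odc1, at 0.50, ended after thinning (0.25) and without cells of another gate (0.26).

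The number of called members in macrophage-like cells of shSELP against shNC, 0, became 1 by DESeq2 and 1 without the filter, Ass1 in both. In tumor-like cells it became 1 without the filter, which was Slc7a2 with 0, 1, 1 and 7 UMIs in library order, among 480 genes called, and ran from 0 to 1 with a library left out, which was Sat1. In the proliferating state, where 3 members were called, it was 2 by DESeq2 and 2 to 3 with a library left out. After thinning it was 1, Nos2, and without cells of another gate it was 1, Odc1 (0.58), which is not among the 3. Sat1 gained a call there without the filter or the deepest cells (−0.31 each), as did Slc7a1 in the lipid-associated state without the filter (−0.61) and with the stricter gate (−0.70) and Odc1 in the inflammatory state without the filter (0.21). In the resident-type state, where 3 were called, it was 2 after thinning, without cells of another gate or without the deepest cells and 2 to 3 with a library left out, as the call of Sat1 ended. The CD11b+ libraries, without a test, were only rescaled by TMM, thinned and given the stricter gate. In these 3 alternatives 5 of 6 counting intervals left out 0, with a lower limit of 0.000124 for Nos2 under TMM scaling (from 0.0970), beside 45.6 to 57.9% of genes with as many UMIs as members. TMM scaling shifted every log2 ratio by −0.0969, to −0.49 for Sat1 (from −0.39). After thinning Nos2 was 0.52 (from 0.31) and Slc7a1 0.85 (from 0.49).

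With no replicate block (library not a term) calls in the states fell from 18 to 7 of 36. The counts were then 1 in the inflammatory, 0 in the resident-type, 2 in the lipid-associated, 1 in the interferon and 0 in the proliferating state. Sat1 in the interferon state was −0.00148 with no replicate block against 0.00171, and the difference of responses for Nos2 was 0.10 against −0.03. A replicate block that pairs libraries of the same number, and a crossed replicate block added after the deviations of same-numbered macrophage libraries were found to correlate at −0.163 (0.0181 in microglia-like, 0.331 in neutrophil-like and 0.00296 in tumor-like cells), called 0 members in macrophage-like cells. In the wider list the replicate block called 2 genes in microglia-like cells.

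In the resident-type state Nos2, at −0.97, was −2.15 without cells of another gate, and Sat1, at 0.36, was 0.55 with the stricter gate and 0.27, 0.40 and 0.35 in the 3 settings that ended its call. In the monocyte state Ass1, at 0.70, was 0.38 without cells of another gate, and the call of Odc1, at −0.38, ended after thinning (−0.20) and without those cells (−0.23). In the lipid-associated state that of Odc1, at −0.31, ended after thinning (−0.12). In the proliferating state calls ended without cells of another gate for Nos2 (−0.50, from −0.82), Slc7a2 (−0.62, from −0.51) and Ass1 (−0.23, from −0.27), after thinning for Slc7a2 (−0.70) and Ass1 (−0.39) and by DESeq2 and without the deepest cells for Ass1 (−0.27 each), and Slc7a2 was −0.85 without the latter.

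Several small values changed sign. In macrophage-like cells of shSELP against shNC, Odc1 was −0.00906 after thinning and −0.0597 without cells of another gate, from 0.07, and Slc7a1 was 0.0542 after thinning, from −0.18. In microglia-like cells Slc7a1 was −0.0888 without cells of another gate, from 0.27. Without cells of another gate Sat1 was −0.11 in neutrophil-like cells, from 0.22, and Slc7a1 was 0.13 in tumor-like cells, from −0.20. Sat1 of macrophage-like against neutrophil-like cells was 0.11 without the filter and 0.41 after thinning, from −0.04.

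In the monocyte state Nos2, at 0.08, was −0.00580 without the filter, −0.13 after thinning and −0.37 without cells of another gate, the last with a call (adjusted p = 0.0232). Slc7a1, at 0.03, was −0.0539, −0.83 and −0.0404 in the same order. In the inflammatory state Ass1, at 0.17, was −0.0335 after thinning and −0.0385 without cells of another gate, and Slc7a1, at 0.13, was −0.0636 and −0.18. In the lipid-associated state Nos2, at −0.09, was 0.12 after thinning, 0.0166 with the stricter gate and 0.13 without cells of another gate, and Slc7a2, at 0.30, was −0.10 without cells of another gate. In the interferon state Slc7a2, at 0.05, was −0.21 after thinning. Sat1, at 0.00, was −0.0230 without the filter, −0.0199 after thinning, −0.0373 with the stricter gate and −0.00547 without cells of another gate.

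For the difference of responses between macrophage-like and microglia-like cells, Nos2 at −0.03 was 0.00574 by DESeq2, 1.27 without the deepest cells and −5.40 without cells of another gate, and Slc7a2 at −0.80 was −6.03 after thinning and 5.62 without cells of another gate. Odc1 at 0.03 was −0.00417 after thinning, −0.00557 with the stricter gate, −0.36 without cells of another gate and −0.0159 without the deepest cells.

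With a library left out, shSELP against shNC in macrophage-like cells ran from −0.20 to 0.98 for Nos2, −0.17 to 0.56 for Slc7a2 and −0.40 to 0.0530 for Slc7a1. In microglia-like cells it ran from −0.0877 to 1.09 for Nos2, −0.69 to 0.21 for Ass1, −0.16 to 0.26 for Odc1, −0.33 to 0.0554 for Sat1 and −0.45 to 0.96 for Slc7a1. Sat1 ran from −0.19 to 0.72 in neutrophil-like and from −0.0426 to 0.98 in tumor-like cells, and Slc7a1 from −0.73 to 0.12 in tumor-like cells. Macrophage-like against neutrophil-like cells ran from −0.32 to 0.29 for Sat1 and −0.21 to 1.49 for Slc7a1.

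In the monocyte state Nos2 ran from −0.0760 to 0.19 and Slc7a1 from −0.12 to 0.19, and in the lipid-associated state Nos2 from −0.58 to 0.12. In the interferon state Slc7a2 ran from −0.0871 to 0.17, Sat1 from −0.0777 to 0.0627 and Slc7a1 from −0.23 to 0.0103. The difference of responses ran from −1.12 to 1.20 for Nos2, −1.48 to 0.84 for Slc7a2, −0.0871 to 0.15 for Odc1, −0.45 to 0.11 for Sat1 and −1.23 to 0.46 for Slc7a1.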
